A study of Homo sapiens with 32 samples.

Results

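The transcripts described here are 39 genes of LNCaP prostate cancer cells whose mean level was higher with an activating construct and lower with a repressive construct built on the same DNA binding domain. They were chosen from 57773 rows of a gene count table by measured ratios. A level was a row's count over the total of its library, times 1000000 (CPM), and a ratio was the mean level of 4 tamoxifen libraries over that of 4 vehicle libraries of the same line. A row was kept with a mean of at least 20 CPM in the vehicle libraries of both the repressive and the activating line, which 2584 rows had, with a ratio of at least 1.5 in the activating line and with a ratio of at most 0.67 in the repressive line. Mitochondrial names, names ending in AS and a digit, KLK2, KLK3, KLK4 and FKBP5 were to be left out, which removed 0 rows. With both ratios mirrored, 43 rows qualified. The levels in the repressive and activating lines therefore describe the choice and test nothing.

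LNCaP is an androgen-dependent prostate cancer line that was established from a lymph node metastasis, and RNA of it was sequenced as 32 libraries, in 8 groups of 4 biological replicates. The parental line carried no construct. The other 3 were stable lines, made by lentiviral infection and kept in blasticidin, each with a modifier of ARE-containing chromatin (MACC): a DNA binding domain that recognizes androgen response elements (AREs), joined to ERT2, an estrogen receptor ligand binding domain that enters the nucleus with tamoxifen, and to a 3X FLAG tag. The neutral MACC carried nothing more, the repressive MACC added KRAB and the activating MACC added VP64. Every line received 2.5 µM tamoxifen or ethanol vehicle for 48 h, in medium with serum, and each MACC was represented by 1 stable line.

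Androgens set the secretory program of prostate epithelium through AREs, in which 2 inverted arms of 6 bases are separated by 3 bases. The DNA binding domain used in the MACCs binds such an element as a pair. KRAB brings silencing complexes to nearby chromatin, whereas VP64 is a viral activation domain that draws in the transcription machinery. RNA levels alone do not separate genes with a bound element from those that change later.

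Because the constructs were designed around the ARE, the genome near the chosen genes was searched for it. The pattern was AGAACA, any 3 bases and TGTTCT, a palindrome that reads alike on both strands, and a match with at most 1 mismatch was taken. Of the 38 chosen genes found in the annotation, 12 (31.6%) had such a match within 50 kb of their start, and 724 of 2360 annotated rows (30.7%) with the same minimum level did. Within 10 kb the numbers were 2 of 38 (5.26%) and 151 of 2360 (6.4%). An exact match within 50 kb was found for 0 of the 38 and for 38 of the 2360 (1.61%). The matches are descriptions of letters, not of binding. As described below, a row may hold reads of a gene on the opposite strand. The search was around the start of the named row only, not around that of a gene opposite. The sequences below are the matches nearest to 7 genes whose levels are described later, from the plus strand of GRCh37, with the 15 bases of the element in capitals and 13 bases on either side. Distances run from the annotated start of the named row to the middle of the element, with negative values upstream.

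ELOVL5, -7.6 kb, chr6:53221557-53221597: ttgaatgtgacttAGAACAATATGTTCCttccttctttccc
MAP1B, -8.56 kb, chr5:71394478-71394518: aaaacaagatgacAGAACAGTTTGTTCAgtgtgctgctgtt
CCDC152, -12.2 kb, chr5:42744700-42744740: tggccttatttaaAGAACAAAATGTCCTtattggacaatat
RP11-443A13.5, -22.8 kb, chr10:78624962-78625002: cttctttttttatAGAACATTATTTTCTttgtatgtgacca
C1orf21, 23.1 kb, chr1:184379225-184379265: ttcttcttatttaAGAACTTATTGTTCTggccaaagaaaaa
SKIV2L2, -23.3 kb, chr5:54580469-54580509: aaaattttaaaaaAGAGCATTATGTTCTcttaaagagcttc
RP11-326A19.5, 25.7 kb, chr15:89719279-89719319: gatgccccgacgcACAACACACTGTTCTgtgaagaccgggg

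Because at most 1 mismatch was allowed, each of the 7 runs has to keep one of the arms AGAACA or TGTTCT without a change. DLX1, NUP50 and RP5-1120P11.1, which had some of the widest or most repeated changes below, had no match to at most 1 mismatch within 50 kb of their start. In the RefSeq promoters of GRCh38.p14, which span 250 bases before to 50 after a start, 25 chosen genes had an entry. An arm of the element (TGTTCT or AGAACA, either strand) occurred in 4 of the 25, those of RP11-443A13.5, CCDC152, UFSP2 and TSSK2, and in 14.9% of the 27305 promoters in the table. The whole element with at most 1 mismatch occurred in 0 of the 25 and in 0.176% of all. These promoters too are those of the named rows, and promoters of genes opposite them were not searched.

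The libraries held 454996 to 1164823 counts, with a median of 669937, so that 1 count was worth 0.858 to 2.2 CPM. ESR1, whose sequence supplies ERT2, had at most 2 counts in any parental library and at least 66 in every library with a construct. All 8 luminal markers on the list used were counted, with a summed count of 415 to 5960 per library, and of the 4 basal markers KRT14, KRT15 and TP63 stayed at or under 3 counts in every library. The fourth, KRT5, did not, and the basal markers summed to 0 to 54 counts per library. The 4 fibroblast markers stayed at or under 3 counts. These are counts of the markers' own rows. A low count there need not mean that a gene was silent, because the strand of counting, described below, is not known. In bulk RNA, a smaller share of cells expressing a gene and less RNA per cell cannot be told apart. Replicates correlated at 0.946 to 0.978. Parental vehicle replicate 1 was the lowest at 0.946 and neutral tamoxifen replicate 4 the next at 0.954, and neutral tamoxifen replicates 1 and 4 differed most (chi-square per gene 25.9, against 1.44 for the most alike pair). Counts without these libraries stand beside the results they touch.

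The strand on which reads were counted bears on every member. Of the 38 found in the annotation (GENCODE 44 lifted to GRCh37), 22 were protein coding, 14 were long noncoding RNAs and 2 were pseudogenes. RP5-977B1.11 was not found. The exons of 31 of the 38 (81.6%) overlapped an exon on the opposite strand, and those of 1978 of the 2360 annotated rows with the same minimum level (83.8%) did. Over the whole table, 80.9% of counts on annotated rows fell on such genes. GAPDH, a highly expressed glycolytic enzyme, had a mean of 65.5 counts and the noncoding row RP5-940J5.9 opposite it had 17178. The library kit marks strand, but the strand setting of the counting is not given in the sources used here. A row with an opposite partner is therefore named with it, and reads of the pair cannot be told apart. The level of a row may thus not be that of the gene it is named after. This holds for rows without an opposite partner too. Among the 30 members with an opposite row in the table, 25 had more counts than all their opposite rows together. The choice asked for a minimum level of the member row and for none of the opposite row. The share over all rows was not taken, so this number describes the choice and is no trait of the members.

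**Figure D1:**
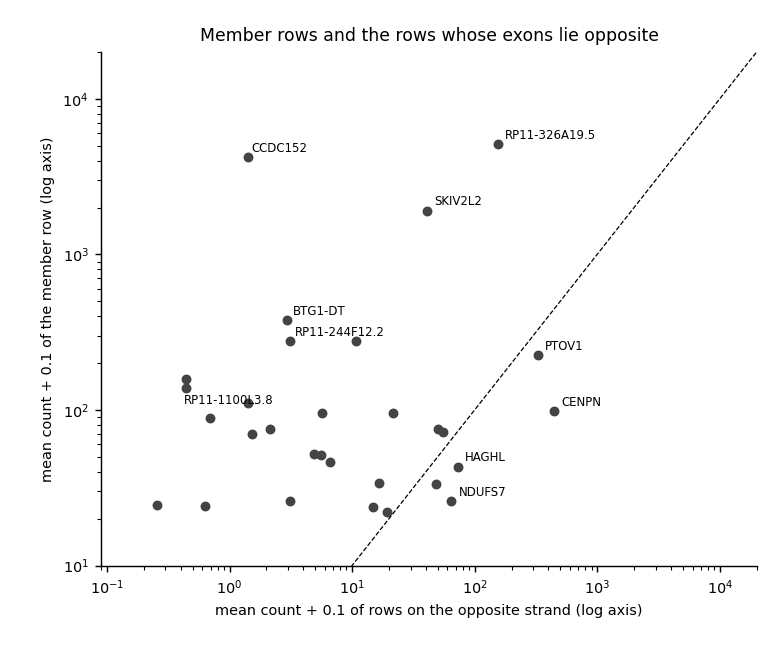
Mean count over 32 libraries of each of 30 member rows (vertical, log axis) against the summed mean count of the rows whose exons lie on the opposite strand (horizontal, log axis), with 0.1 added to each. The dashed line marks equal counts, and 25 of the 30 points lie above it, CCDC152 farthest to the upper left and CENPN on the other side of it. The choice set a minimum level for the member rows only.

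The ratios of the members ran from 1.519 to 41.57 in the activating line and from 0.008076 to 0.6684 in the repressive line. Just inside the activating threshold lay CYB5R2 (1.519) and ACADVL (1.52), and just outside it RP11-379F4.7 (1.496) and ABR (1.495). Just inside the repressive threshold lay HAGHL (0.6684) and CENPN (0.6656), and just outside it NPB (0.6703) and RBBP4 (0.6738). At the minimum level, ELOVL5 (20.76 CPM in the lower vehicle group) and C1orf21 (22.04) were inside, and EHMT2 (17.71) and RP11-1060J15.4 (17.59) outside. With each of the 16 libraries of the 2 lines left out in turn, 35 to 45 rows qualified and 26 of the 39 did every time. HAGHL was the least steady, in 8 of the 16. Scaling by edgeR's trimmed mean of M-values (TMM), which corrects for a few abundant genes taking up the counts, raised the log2 ratios by 0.31 in the activating line, 0.17 in the repressive, 0.15 in the neutral and 0.03 in the parental line. With levels scaled so, 38 rows qualified, of which 25 were among the 39. Of the 14 that no longer did, 13, among them STARD5, BTG1-DT, CENPN and RP11-326A19.5, had a repressive ratio of 0.68 or more, and ELOVL5 was under the minimum level.

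**Figure D2:**
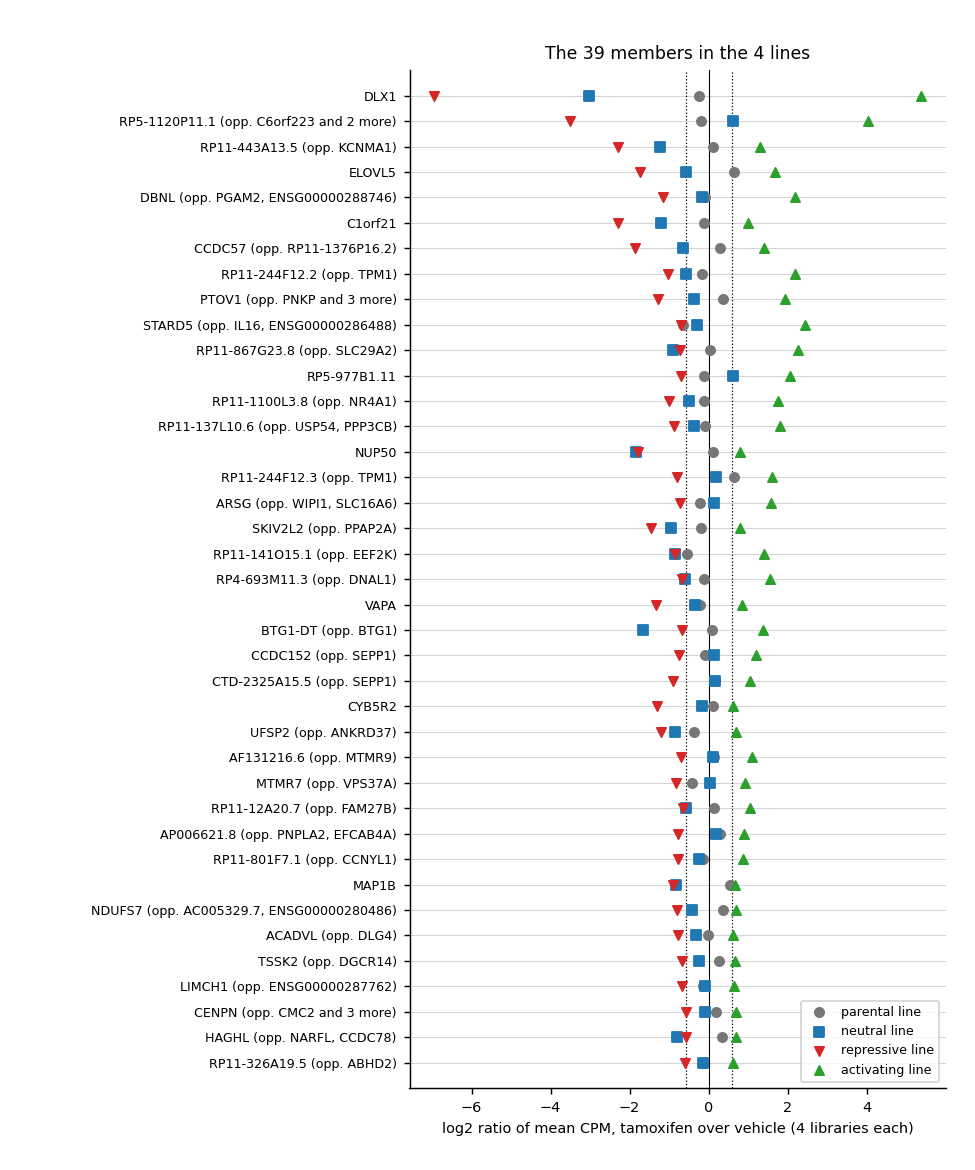
The log2 ratio of mean CPM, tamoxifen over vehicle, of the 39 members (rows, ordered by the quotient of the activating and repressive ratios) in each of the 4 lines. Dotted lines mark the thresholds of 1.5 and 0.67. Most parental points lie near 0, and the neutral points of DLX1, NUP50 and BTG1-DT lie farthest to the left. The repressive point of DLX1 rests on 1 count in 4 libraries.

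Of the members, 7 have no annotated exon opposite, although the unknown strand setting applies to their rows too. Of all members DLX1 had the widest change. DLX1, a homeobox transcription factor of developing forebrain neurons that is also measured in prostate cancer urine tests, lies at chr2:172949468-172954405. Under vehicle the parental libraries held 20.8 to 59.3 CPM of it, the neutral ones 28.9 to 39.2, the repressive ones 33.5 to 51.6 and the activating ones 33.9 to 41.6. With tamoxifen the 4 activating libraries held 1632, 1536, 1398 and 1707 CPM, a ratio of 41.57. The 4 repressive libraries held 0, 0, 1 and 0 counts of DLX1, against 106 over the 4 vehicle libraries, so the ratio of pooled rates was 0.00875 with an exact 95% interval of 0.00022 to 0.0498 that covers counting error only. The neutral tamoxifen libraries held 4.29, 8.57, 2.93 and 1.61 CPM, below every other library except those of the repressive line. The vehicle levels of the 4 lines overlapped, whereas no tamoxifen library of the 3 MACC lines fell within their range.

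ELOVL5 extends polyunsaturated fatty acids and is on the androgen response list. Its tamoxifen libraries held 71.1, 73.9, 51.6 and 67.3 CPM in the activating line and 8.84, 7.08, 5.27 and 5.97 CPM in the repressive line, from vehicle means of 20.8 and 22.7 CPM. NUP50, a nuclear pore protein, held 59.5, 69.1, 91.5 and 77.3 CPM in the activating tamoxifen libraries, of which the lowest lay within the vehicle range of 28.0 to 60.6 CPM. In the repressive line NUP50 held 3.79, 12.4, 19.8 and 10.4 CPM with tamoxifen and 38.3 to 43.5 CPM with vehicle. C1orf21 had ratios of 1.984 and 0.2021 in the activating and repressive lines. VAPA, a protein of endoplasmic reticulum contact sites, had 1.798 and 0.3983, and MAP1B, a microtubule-associated protein of neurons, had 1.571 and 0.5383. CYB5R2, a cytochrome b5 reductase, had 1.519 and 0.405. Groups of VAPA did not overlap in either line, while the activating groups of CYB5R2 did.

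RP5-1120P11.1, annotated as the noncoding RNA SCIRT at chr6:43899309-44042392, had the next widest change after DLX1. Its activating tamoxifen libraries held 1219, 1138, 1293 and 1320 CPM and its repressive ones 3.79, 7.08, 10.5 and 4.47 CPM. Vehicle libraries of those lines held 61.9 to 86.7 and 57.4 to 95.3 CPM. The annotated opposite row C6orf223 had a mean of 0.03125 counts per library. RP11-443A13.5, annotated as KCNMA1-AS1 at chr10:78647802-78740382, lies opposite KCNMA1, which encodes a calcium-activated potassium channel. RP11-443A13.5 held 202, 177, 175 and 167 CPM in the activating tamoxifen libraries and 21.5, 3.54, 11.8 and 11.9 CPM in the repressive ones. The row of KCNMA1 itself had means of 5.77 and 27.1 CPM in the activating vehicle and tamoxifen groups and 4.06 and 1.06 CPM in the repressive ones.

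Of the 39, 4 members lie opposite genes of the androgen response list, and the share of all rows that do was not taken. CCDC152 at chr5:42756920-42802541 and the noncoding CTD-2325A15.5 at chr5:42806496-42807099 lie opposite SEPP1 (SELENOP), which encodes a secreted protein that carries selenium. CCDC152 held 10490, 11420, 10610 and 11840 CPM in the activating tamoxifen libraries, 2788, 2836, 2377 and 2641 CPM in the repressive ones, and 4128 to 5174 CPM over the vehicle libraries of those lines. CTD-2325A15.5 had ratios of 2.064 and 0.538. The row of SEPP1 itself held at most a mean of 4.15 CPM in any group. SKIV2L2 (MTREX), an RNA helicase of the nuclear exosome, lies at chr5:54603817-54721407 opposite PPAP2A (PLPP1), a lipid phosphate phosphatase. Its libraries held 4749, 4952, 4628 and 5263 CPM in the activating line with tamoxifen and 972, 957, 890 and 968 CPM in the repressive line, from 2645 to 3056 and from 2483 to 2862 CPM. RP11-326A19.5, a processed pseudogene at chr15:89744322-89744999, lies opposite ABHD2, a lipase. It had the highest counts of the 39, with a mean of 5120 counts per library, and its ratios of 1.543 and 0.6602 were close to the thresholds. The row of ABHD2 had a mean of 154 counts, with 199 and 304 CPM in the activating vehicle and tamoxifen groups and 225 and 228 CPM in the repressive ones.

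BTG1-DT, listed in the table under a clone name (ENSG00000245904), lies at chr12:92539349-92620333, opposite the antiproliferative gene BTG1. It held 1485, 1327, 1193 and 1370 CPM in the activating tamoxifen libraries and 312, 285, 280 and 361 CPM in the repressive ones. RP11-1100L3.8 lies opposite NR4A1, an orphan nuclear receptor, and had ratios of 3.353 and 0.4968. RP11-244F12.2 and RP11-244F12.3 lie opposite TPM1, a tropomyosin of actin filaments. RP11-244F12.2 held 1358, 1383, 1350 and 1342 CPM in the activating tamoxifen libraries and 271 to 336 CPM in the vehicle ones. RP11-244F12.3 had ratios of 3.008 and 0.57, but its groups overlapped in both lines. In the activating line it held 54.4 to 172 CPM with tamoxifen and 15.4 to 67.7 CPM with vehicle. The row of TPM1 had a mean of 3.0 counts. Because they share TPM1, the pair are not independent readings, and the same holds for CCDC152 and CTD-2325A15.5.

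**Figure D3:**
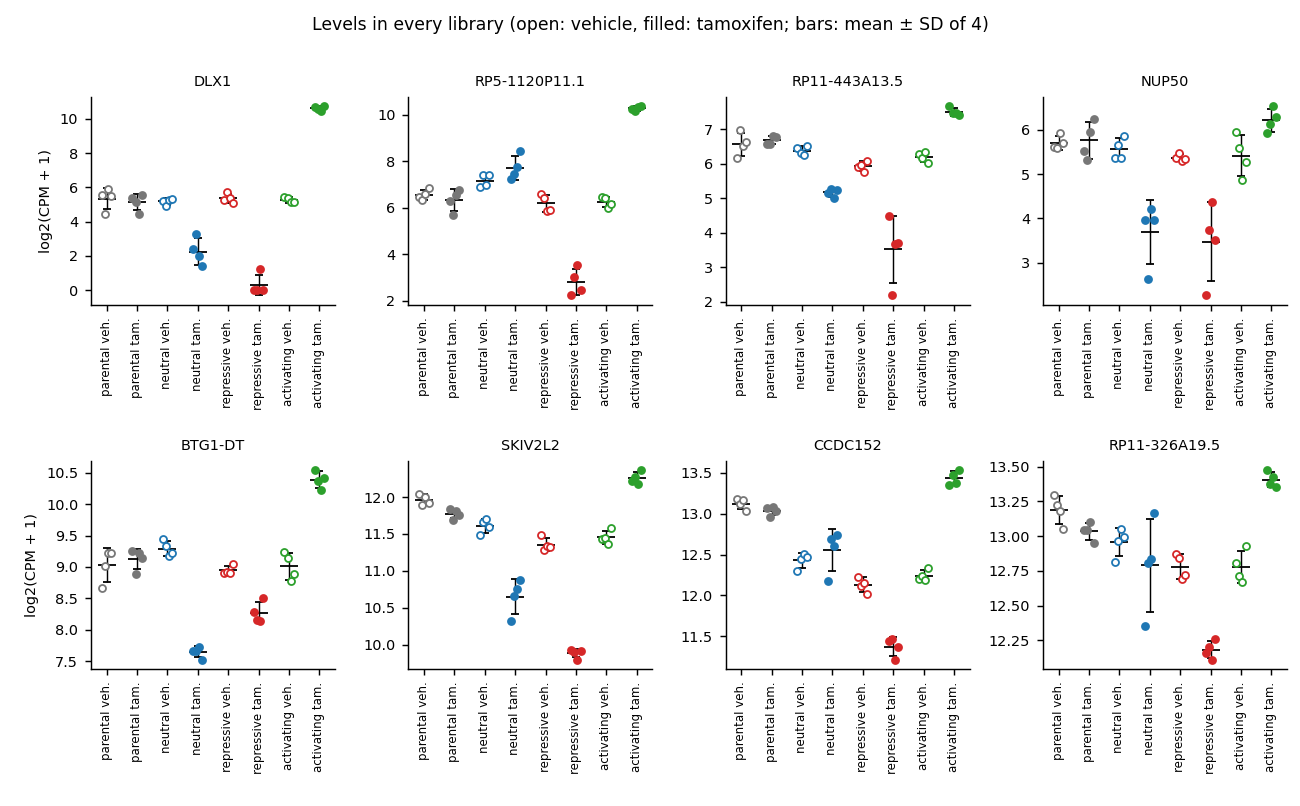
Levels of 8 members as log2(CPM + 1) in each of 32 libraries, 4 per line and treatment, with the mean and SD of each group of 4. The vertical axes differ between panels and do not start at 0. Neutral tamoxifen libraries lie below neutral vehicle libraries for DLX1, RP11-443A13.5, NUP50, BTG1-DT and SKIV2L2, and overlap or exceed them for the others.

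The other members with an opposite partner fell into several roles. STARD5, a carrier of cholesterol and bile acids opposite the cytokine IL16, had ratios of 5.37 and 0.6094. Its row had a mean of 33.3 counts against 48.3 for IL16. The row of IL16 had means of 88.6 and 57.0 CPM in the activating vehicle and tamoxifen groups. In the repressive ones it had 104.7 and 47.3 CPM. ARSG, a lysosomal sulfatase opposite SLC16A6 and the autophagy gene WIPI1, had ratios of 2.977 and 0.6015. The row of WIPI1 had means of 101 CPM under vehicle and 30.1 CPM with tamoxifen in the activating line, and of 98.6 and 33.5 CPM in the repressive line. Among mitochondrial enzymes, NDUFS7 of respiratory complex I, opposite AC005329.7 with its mean of 64.4 counts against 25.7, had ratios of 1.621 and 0.5759 and ACADVL of fatty acid oxidation, opposite DLG4, had 1.52 and 0.5843. Among cytoskeletal genes, DBNL, an actin adaptor opposite PGAM2, had 4.519 and 0.4517 and LIMCH1, an activator of nonmuscle myosin opposite an unnamed gene, had 1.547 and 0.6224. CENPN, a centromere protein on the androgen response list, had 1.615 and 0.6656, but its opposite row CMC2 had a mean of 430 counts against 98.4 for CENPN itself. The row of CMC2 had means of 648 and 835 CPM in the activating vehicle and tamoxifen groups and 607 and 264 CPM in the repressive ones. MTMR7, a lipid phosphatase opposite VPS37A, had 1.884 and 0.5592, and AF131216.6 opposite the related MTMR9 had 2.148 and 0.6149. UFSP2, a protease of the ubiquitin-like UFM1 opposite ANKRD37, had 1.613 and 0.4358.

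PTOV1, overexpressed in prostate tumors, had ratios of 3.798 and 0.4116. The largest of its opposite rows, PTOV1-AS1, had a mean of 318 counts against 226. PTOV1-AS1 had means of 487 and 501 CPM in the activating vehicle and tamoxifen groups and 513 and 437 CPM in the repressive ones. CCDC57, opposite RP11-1376P16.2, had ratios of 2.64 and 0.2743. Those of TSSK2, a testis kinase opposite DGCR14, were 1.591 and 0.6259. HAGHL had 1.61 and 0.6684, with a mean of 43.2 counts against 65.0 for NARFL and 7.62 for CCDC78 opposite it. The remaining noncoding rows were RP11-867G23.8 opposite the nucleoside transporter gene SLC29A2 (4.739 and 0.6074), RP11-137L10.6 opposite USP54 and the calcineurin gene PPP3CB (3.469 and 0.5474), and RP11-141O15.1 opposite EEF2K, a kinase that slows translation (2.628 and 0.5504). RP4-693M11.3 opposite DNAL1 (2.908 and 0.6296), RP11-801F7.1 opposite CCNYL1 (1.829 and 0.5868) and AP006621.8 opposite EFCAB4A and the triglyceride lipase gene PNPLA2 (1.856 and 0.584) completed them. The pseudogene RP11-12A20.7, opposite FAM27B, had 2.064 and 0.6409, and RP5-977B1.11 had 4.163 and 0.6122.

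The parental line shows what tamoxifen did without a construct, a comparison that the choice of members did not use. By edgeR's quasi-likelihood test 0 of 39 members passed an adjusted p of 0.05 in it, and 0.0% of the 3985 genes tested did. At an unadjusted p under 0.05 there were 306 of the 3985, and DESeq2 also called 0. The median log2 fold change of the members was -0.08, and that of all genes tested was 0.01. TSSK2 was higher with no overlap between the groups, which 1.88% of tested genes showed, and STARD5 and SKIV2L2 were lower with no overlap, which 2.53% showed. STARD5 held 45.5, 38.1, 52.7 and 47.8 CPM under vehicle and 33.1, 30.7, 19.3 and 33.2 CPM with tamoxifen (log2 fold change -0.66, 95% interval -1.14 to -0.18, adjusted p = 0.531 from edgeR). ELOVL5 had a log2 fold change of 0.59 (95% interval 0.05 to 1.14, adjusted p = 0.641 from edgeR) with overlapping groups.

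The neutral MACC carries the DNA binding domain without KRAB or VP64, in a line that the choice of members did not use. On the CPM scale 30 of the 39 members had a neutral ratio below 1, with a median of 0.77, against 69.8% of the 2468 rows meeting the minimum level there and a median of 0.915. The ratio was at most 0.67 for 13 members, against 8.31% of those rows. In edgeR's quasi-likelihood test 8 members fell, while 2.11% of tested genes fell, and 2 rose, while 2.61% of tested genes rose. The median log2 fold change of the members was -0.26 and that of all tested genes 0. Groups did not overlap for 13 members that were lower (8.71% of tested genes) and for 1 that was higher (1.58%). Without neutral tamoxifen replicate 4, 15 members passed, without replicate 1 of that group 8 did, and without replicate 3 only 6 did.

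DLX1 fell furthest, from 36.0, 28.9, 37.3 and 39.2 CPM under vehicle to the 4 low values given above (log2 fold change -2.84, SE 0.354, adjusted p = 3.16e-05 by edgeR's quasi-likelihood test). BTG1-DT held 699, 641, 575 and 596 CPM under vehicle and 203, 202, 211 and 183 CPM with tamoxifen (-1.49, SE 0.0995, adjusted p = 3.44e-09 by edgeR). The neutral tamoxifen libraries of BTG1-DT were lower than those of the repressive line, which held 280 CPM or more. NUP50 held 40.0, 49.6, 40.0 and 57.0 CPM under vehicle and 14.6, 5.14, 17.6 and 14.5 CPM with tamoxifen (-1.63, SE 0.278, adjusted p = 0.00102 by edgeR). Its neutral and repressive tamoxifen libraries covered nearly the same range.

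RP11-443A13.5 held 86.6, 78.5, 74.7 and 89.9 CPM under vehicle and 34.3, 37.7, 30.8 and 37.0 CPM with tamoxifen (log2 fold change -1.08, SE 0.177, adjusted p = 0.000721 by edgeR). SKIV2L2 held 2858, 3252, 3320 and 3096 CPM under vehicle and 1276, 1611, 1731 and 1880 CPM with tamoxifen (-0.83, SE 0.0643, adjusted p = 2.7e-08 by edgeR). RP11-244F12.2 fell less, from 316 to 337 CPM down to 173 to 243 CPM (-0.45, SE 0.0876, adjusted p = 0.00401 by edgeR). These 6 calls held under every alternative that gave a value. C1orf21 held 28.0, 23.4, 28.0 and 39.2 CPM and then 8.59, 13.7, 13.2 and 16.1 CPM (-1.11, SE 0.276, adjusted p = 0.0217 by edgeR), and RP11-867G23.8 fell by 0.77 on the log2 scale (SE 0.189, adjusted p = 0.0193 by edgeR). The C1orf21 call was lost without tamoxifen replicate 1, 2 or 3 or vehicle replicate 4, by DESeq2 and with no filter on counts (highest adjusted p 0.101). That of RP11-867G23.8 was lost without tamoxifen replicate 3 or vehicle replicate 1, 2 or 4, and under the same changes of test and filter (highest adjusted p 0.0698).

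CCDC152 was a member that rose with the neutral MACC, in the direction of the activating rather than the repressive line. It held 5048, 5567, 5819 and 5682 CPM under vehicle and 4620, 6591, 6253 and 6845 CPM with tamoxifen (log2 fold change 0.25, SE 0.0626, adjusted p = 0.0204 by edgeR), and the groups overlapped. Its call was lost without tamoxifen replicate 2 or 3 (highest adjusted p 0.0937). RP5-977B1.11 held 41.3, 34.4, 37.3 and 36.7 CPM and then 53.2, 72.0, 54.3 and 49.9 CPM (0.75, SE 0.194, adjusted p = 0.0264 by edgeR). That call was lost in 7 of 14 alternatives, 6 of them the loss of tamoxifen replicate 1, 2 or 3 or vehicle replicate 2, 3 or 4, with a highest adjusted p of 0.095. RP5-1120P11.1, the second widest responder to the activating and repressive MACCs, had a log2 fold change of 0.71 (95% interval 0.29 to 1.13, adjusted p = 0.102 by edgeR) and overlapping groups. RP11-326A19.5 had -0.03 (95% interval -0.19 to 0.14, adjusted p = 0.925 by edgeR), with tamoxifen libraries spread from 5227 to 9193 CPM.

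**Figure D4:**
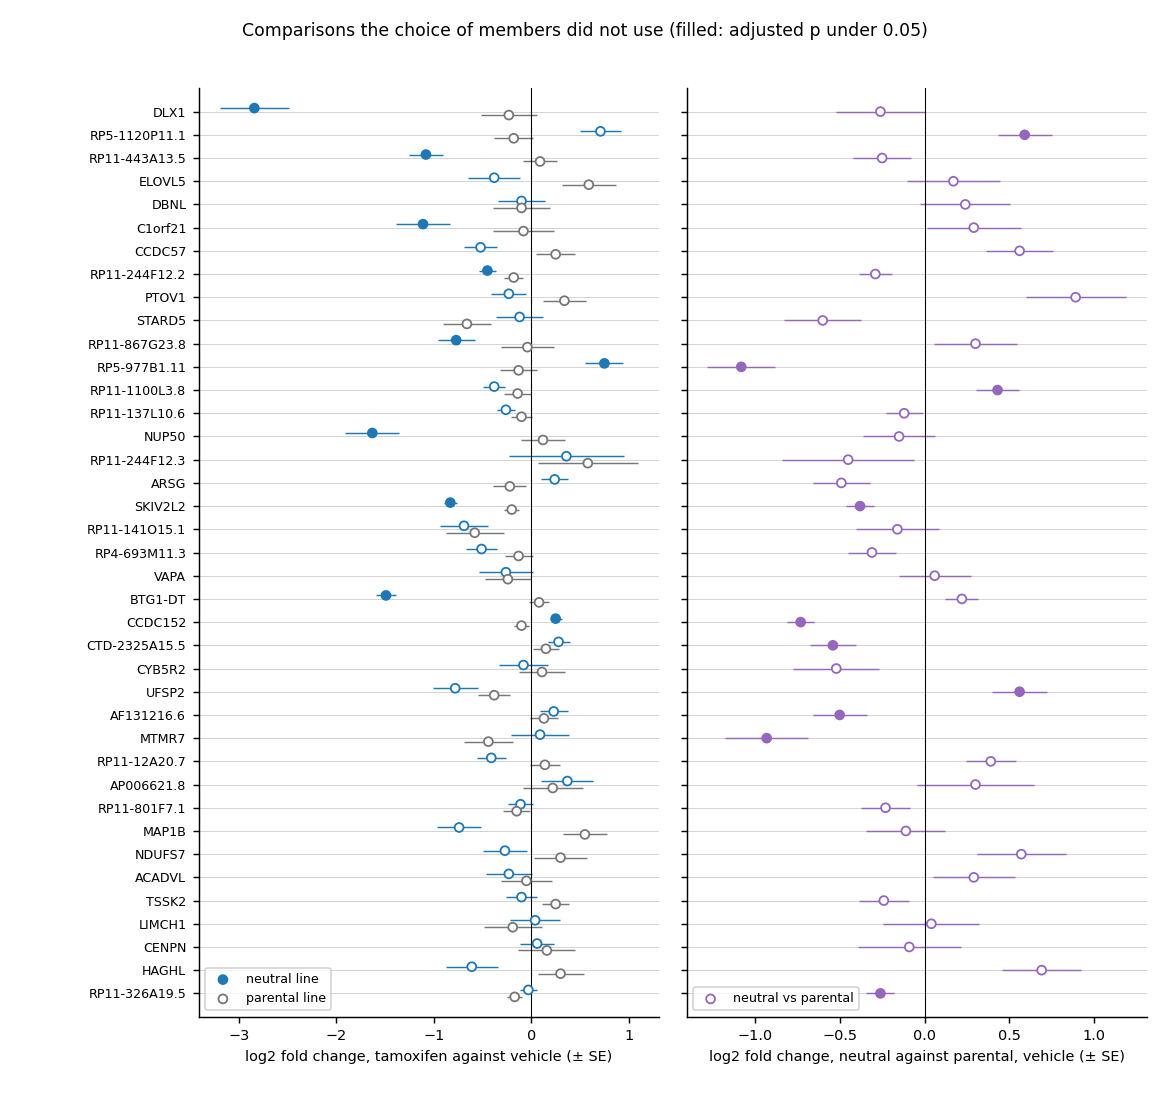
Log2 fold changes with standard errors from edgeR for the 39 members (same order as the ratios plot) in comparisons that the choice did not use. Left, tamoxifen against vehicle in the neutral (blue) and parental (grey) lines, 4 libraries per group. Right, neutral against parental line under vehicle. Filled points have an adjusted p under 0.05, which 10 neutral points, 0 parental points and 10 points on the right have.

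Whether a neutral response differed from the parental one was tested as the interaction of line and treatment, over the same 16 libraries as the comparisons above. By edgeR's quasi-likelihood test the response was lower in the neutral line for 6 members, against 0.627% of tested genes, and higher for 1, against 0.853%. DLX1 differed by -2.58 on the log2 scale (SE 0.497, adjusted p = 0.00322 by edgeR), NUP50 by -1.72 (SE 0.366, adjusted p = 0.008 by edgeR) and BTG1-DT by -1.56 (SE 0.149, adjusted p = 1.21e-08 by edgeR). RP11-443A13.5 differed by -1.15 (SE 0.241, adjusted p = 0.00712 by edgeR) and SKIV2L2 by -0.60 (SE 0.105, adjusted p = 0.000969 by edgeR). These 5 calls held in all 22 alternatives. MAP1B differed by -1.26 (SE 0.327, adjusted p = 0.0374 by edgeR). Its libraries held 49.6, 38.1, 63.7 and 35.9 CPM under vehicle and 69.2, 84.0, 67.6 and 52.1 CPM with tamoxifen in the parental line, and 43.9, 45.4, 34.7 and 49.4 CPM and then 16.3, 20.6, 24.9 and 35.4 CPM in the neutral line. Neither response of MAP1B passed on its own. Its call was lost in 11 of 22 alternatives, all of them with 1 library left out: neutral tamoxifen 1, 2 or 3, neutral vehicle 1, 2 or 4, parental tamoxifen 1, 2 or 3, or parental vehicle 2 or 4 (highest adjusted p 0.11). For CCDC152 the difference was 0.38 (SE 0.101, adjusted p = 0.0434 by edgeR) and was lost in 15 of the 22, DESeq2's test among them, with a highest adjusted p of 0.147. Leaving out neutral tamoxifen 2, 3 or 4, neutral vehicle 1, 2 or 4, parental tamoxifen 1, 2 or 4, or parental vehicle 1 or 3 each ended it.

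Members also differed between the neutral and parental lines before induction. Under vehicle 7 members were lower in the neutral line, against 5.72% of tested genes, and 3 were higher, against 4.02%, by edgeR's quasi-likelihood test. The groups did not overlap for 10 members that were lower (8.26% of tested genes) and 4 that were higher (8.01%). This comparison shares its vehicle libraries with those above. CCDC152 held 9286, 8883, 9167 and 8400 CPM in the parental line and 5048 to 5819 CPM in the neutral line (log2 fold change -0.73, SE 0.0783, adjusted p = 2.01e-07 by edgeR), and CTD-2325A15.5 at the same locus differed by -0.54 (SE 0.134, adjusted p = 0.0083 by edgeR). RP5-977B1.11 held 59.9, 95.2, 79.1 and 76.2 CPM in the parental line and 34.4 to 41.3 CPM in the neutral line (-1.08, SE 0.199, adjusted p = 0.000512 by edgeR). SKIV2L2 differed by -0.38 (SE 0.0809, adjusted p = 0.00204 by edgeR). These 4 calls held in all 14 alternatives. The groups of these 4 members did not overlap, and the parental line was the higher in each.

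The other 6 calls under vehicle were each lost without some single library. All but that of MTMR7 were also lost with a replicate block in the fit. DESeq2's test ended those of AF131216.6 and RP11-326A19.5 as well. MTMR7 differed by -0.93 (adjusted p = 0.0136 by edgeR), lost without neutral replicate 2 or 3 (highest 0.0641). RP5-1120P11.1 was higher by 0.59 (adjusted p = 0.0171 by edgeR), RP11-1100L3.8 by 0.43 (0.0289) and UFSP2 by 0.56 (0.0286). Each of these 3 kept its call in 8 of 14 alternatives, and the highest adjusted p was 0.0885, 0.123 and 0.118. AF131216.6 (-0.50, adjusted p = 0.042 by edgeR) kept its call in 4 of 14 and RP11-326A19.5 (-0.26, adjusted p = 0.0421 by edgeR) in 5 of 14, with highest values of 0.159 and 0.163. Parental replicate 3 was among the libraries that ended 5 of these 6 calls, and without it 5 members passed in all. Without neutral replicate 2 or 4, 4 and 5 passed, and without parental replicate 1, which stood apart, 12 did.

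Other genes of the androgen response were read from lists of 94 androgen response genes and of narrower programs. Of the members, 3 are on the androgen response list by their own rows (CENPN, ELOVL5 and VAPA), and 4 lie opposite one of its genes. The share of all rows at the same level that do so was not taken, so these numbers only describe the members. Members had been removed from these lists by the same ratios, and a gene with few counts under vehicle could pass the filter through 1 tamoxifen group, so the counts below describe the lists and support nothing about the members. Of 31 other listed genes that were tested, 14 rose and 5 fell in the activating line and 2 rose and 5 fell in the repressive line (adjusted p under 0.05, edgeR's quasi-likelihood test), against 22.0% and 22.8% of all tested genes in the activating and 7.8% and 9.99% in the repressive line. Their median log2 fold changes were 0.39 and -0.14, beside -0.09 and 0 for all genes. Of 22 rows opposite a listed gene, 12 rose and 3 fell in the activating line and 0 rose and 5 fell in the repressive line. In the neutral line 1 of the 22, RP11-109D20.2, fell by 0.32 on the log2 scale (adjusted p = 0.00082 by edgeR). The row of KRT8, a luminal keratin opposite KRT18, rose by 3.27 on the log2 scale in the activating line (SE 0.108, adjusted p = 2.68e-12 by edgeR) and had 0.09 in the repressive line (adjusted p = 0.439 by edgeR).

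Rows opposite ALDH1A3 and SORD rose in the activating line and fell in the repressive line, where their mean ratios were above the threshold of the choice. RP11-66B24.4, opposite the retinal dehydrogenase gene ALDH1A3, changed by 1.95 in the activating line (SE 0.0649, adjusted p = 2.91e-17 by edgeR) and by -0.36 in the repressive line (SE 0.0621, adjusted p = 9.09e-05 by edgeR). RP11-109D20.2, opposite SORD, which makes fructose from sorbitol, changed by 1.80 and -0.30 (SE 0.0826 and 0.0552, adjusted p = 1.02e-13 and 0.00016 by edgeR). FKBP5, a chaperone partner of steroid receptors that was below the minimum level, held 277 pooled counts with tamoxifen and 32 with vehicle in the activating line and 3 and 24 in the repressive line, a ratio of pooled rates of 0.116 (exact 95% interval 0.0224 to 0.382) in the latter.

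Of 7 tested lipid synthesis genes besides ELOVL5, 3 rose and 2 fell in the activating line and 1 rose and 0 fell in the repressive line. FASN, the fatty acid synthase, rose by 3.03 (SE 0.133, adjusted p = 5.21e-15 by edgeR) in the activating line and had -0.39 (SE 0.204, adjusted p = 0.203 by edgeR) in the repressive line. The row of FADS1, a desaturase opposite FADS2, rose in both, by 1.37 (adjusted p = 1.33e-11) and by 0.46 (adjusted p = 0.000564 by edgeR). Of 11 secretory pathway genes, 2 rose and 1 fell in the activating line and 0 rose and 1 fell in the repressive line. For 8 genes of prostate secretion and polyamines these numbers were 2 and 2, and 0 and 2. For 4 targets shared by steroid receptors they were 3 and 0, and 0 and 2. The shares of all tested genes are those given for the androgen response list, and several of these small counts moved with the processing.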

How the data were processed

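RNA from 32 LNCaP samples was sequenced from stranded mRNA libraries (Illumina Stranded mRNA Prep). The deposited table holds estimated counts per gene, which the authors made with the nf-core/rnaseq workflow and, per the submitters' processing notes, Salmon 1.9.0 on GRCh37. DESeq2 1.28.0 is also named there. The annotation release and strand setting are not given in the sources used here. Before testing, each value was rounded to the nearest whole number.

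Levels and ratios for the choice of members used CPM from the table as deposited. The members and gene lists were chosen with earlier results of these data known. Tests used edgeR 4.0.16 in R 4.3.3 on 3985 of 23861 counted genes that passed filterByExpr over the 8 groups, with TMM scaling, estimateDisp, robust glmQLFit and glmQLFTest, and Benjamini-Hochberg adjustment over all genes tested at 0.05. Each tamoxifen comparison, and that of the neutral and parental lines under vehicle, was fitted on its own 8 libraries, and the interaction on 16. All 39 members passed the filter. Since it is over group levels, a member could pass through the group in which it was high, so no count over the members was taken from the repressive or activating lines. Ratios of pooled counts used an exact binomial interval. These exact intervals and the floor of 3 counts cover counting error only. Intervals of log2 fold changes were the estimate ± 1.96 standard errors. Those standard errors were derived from edgeR's F statistic and include the spread of replicates. The factor of 1.96 makes no allowance for the small number of libraries, so these intervals can be too narrow.

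Genes named were the 39 members, those nearest each threshold, opposite partners, ESR1 and the 6 other list genes with the lowest adjusted p. Marker and control genes are named beside them, and 1 gene of the luminal list is not reported here. Exons were taken from GENCODE 44 lifted to GRCh37, in which 96.1% of rows were found, and sequences from GRCh37 and RefSeq. On counts simulated for the neutral comparison over 3985 genes, 55 of 100 genes changed by 1 on the log2 scale and 95 of 100 changed by 2 were called, none in the wrong direction, and 11 of 3785 unchanged genes were. Replicates are called biological in the labels. The deviations of same-numbered libraries correlated at 0.112 to 0.202 for every pair of the activating line. The numbers were therefore taken to pair its samples, but not those of the comparisons tested on the members. The main fits nevertheless had no replicate term in any line, so the activating results given above ignore this pairing. A replicate block was run only as an alternative. Vehicle replicates 1 and 4 of the activating line correlated better with a tamoxifen library of another number, so this pairing is an assumption. Alternatives were DESeq2 1.42.0, its size factors, no filter, at least 10 counts in 4 libraries, 1 estimate of spread over all 32 libraries, a replicate block and leaving out each library.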

Additional observations from a re-analysis of the deposited data

Results flagged for a closer look

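In 12 of 312 combinations of a member and a group of 4 libraries (3.85%), 1 library stood apart from the other 3 by Dixon's criterion, which chance meets in about 1 of 20 groups. With the level of the library that stood apart, these were DLX1 at 1.32 CPM (repressive tamoxifen, 1 count beside 3 libraries at 0), DBNL at 19.1 CPM (repressive vehicle), BTG1-DT at 530.2 CPM (repressive vehicle), STARD5 at 30.9 CPM (activating vehicle) and RP11-1100L3.8 at 479 CPM (activating tamoxifen). In the neutral line they were RP11-137L10.6 at 300.1 CPM (vehicle), RP4-693M11.3 at 43.8 CPM and TSSK2 at 113 CPM (both tamoxifen). In the parental vehicle group they were RP4-693M11.3 at 151 CPM, CYB5R2 at 68.2 CPM, RP11-801F7.1 at 182 CPM and CENPN at 53.7 CPM.

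The response to tamoxifen differed between the neutral and parental lines for 7 members by edgeR's interaction test. The differences on the log2 scale, neutral minus parental, were -2.58 for DLX1, -1.72 for NUP50, -1.56 for BTG1-DT, -1.26 for MAP1B, -1.15 for RP11-443A13.5, -0.60 for SKIV2L2 and 0.38 for CCDC152. Of these, the calls of MAP1B and CCDC152 were lost in 11 and 15 of 22 alternatives.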

How the results depend on the processing

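No called result changed direction under the alternatives run. Among the members, 6 of 10 calls in the neutral line, 4 of 10 between the lines under vehicle and 5 of 7 in the interaction held under every alternative that gave a value. RP5-1120P11.1 and UFSP2, not called in the neutral line, each passed there in 5 alternatives.

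Genes called in the parental line numbered 0, but 24 with no filter, 32 with the replicate block, and 0 to 3 with a library left out (3 without vehicle replicate 1). Between the neutral and parental lines under vehicle, the replicate block gave 208 genes and 5 members in place of 388 and 10. For the neutral line the block gave 253 genes and 14 members in place of 188 and 10. For the interaction it gave 84 and 8 in place of 59 and 7. For the activating line, whose numbers were taken to pair, it gave 1922 genes in place of 1786 from the main fit, which ignored the pairing. The repressive line gave 931 genes in place of 709. Its numbers were not taken to pair the samples, since 1 of its 4 correlations was 0.0586, although every library there correlated best with its own number, a hint from the data and not the design. DESeq2 called 451 genes in the repressive line, where edgeR called 709. The cause was not tested. In the repressive line, the 2 steroid receptor targets that fell were 0 or 1 in 8 alternatives, the 2 prostate secretion genes that fell were 1 in 4, the 5 androgen response genes that fell were 2 or 3 in 4, and the 0 secretory genes that rose were 1 in 5. In the activating line, the 1 secretory gene that fell was 0, 2 or 3 in 3 alternatives.

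With each library left out, the neutral line gave 105 to 415 genes and 6 to 15 members (lowest without tamoxifen replicate 3, highest without tamoxifen replicate 4). The vehicle comparison gave 202 to 517 genes and 4 to 12 members (215, 241 and 202 genes without neutral replicate 2 or 4 or parental replicate 3). The interaction gave 34 to 70 genes and 5 to 7 members (34 without neutral vehicle replicate 2 or parental tamoxifen replicate 4, 37 without neutral vehicle replicate 1). The activating and repressive lines gave 1608 to 1717 and 534 to 729 genes, and 35 to 45 rows met the rule of choice. With medians in place of means 44 rows met it, 34 of them among the 39, and without mitochondrial counts 40 did, all 39 included. Depth limits levels near the minimum of 20 CPM, since 1 count was worth 0.858 to 2.2 CPM.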
